A study of Mus musculus with 96 samples.

Results

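Bcl2a1a, Cflar and Pmaip1 are 3 mouse genes that set whether a cell lives or dies, and their RNA was followed here in macrophage-like cells given bacterial and host signals alone and in pairs. Their probes were taken by the gene symbol of the array's platform annotation. They are 3 of 10698 genes named on the array and have 4 of its 16281 probes: probe 14546 of Bcl2a1a, probe 7907 of Cflar, and probes 4316 and 6008 of Pmaip1. By mouse RefSeq (build GRCm38.p6), Bcl2a1a lies on chromosome 9 at 88956920 to 88962416, Cflar on chromosome 1 at 58711311 to 58758884 and Pmaip1 on chromosome 18 at 66458604 to 66465558. Where in the gene each probe lies was not analysed here. All 4 probes passed the filter on missing values.

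Bcl2a1a encodes A1, a survival protein of the Bcl-2 family that binds the proteins which open the outer mitochondrial membrane. Cflar encodes c-FLIP, a relative of the initiator caspase of the death receptors that lacks protease activity and blocks the activation of that caspase at the receptor. Pmaip1 encodes Noxa, a BH3-only protein that binds survival proteins such as Mcl1 and A1 and so favours death. In macrophages, A1 and c-FLIP are known as targets of NF-kB, a transcription factor that Toll-like receptor signalling activates, and Noxa is known as a target of p53.

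RAW 264.7 is a mouse macrophage-like tumour line. Lipopolysaccharide (LPS), a component of the bacterial outer membrane that is sensed by Toll-like receptor 4, was given at 100 ng with 100 pM LPS binding protein, with no volume stated. Interferon gamma (IFNG), a T cell and natural killer cell cytokine, was used at 5 nM. The third ligand, 2-methyl-thio-ATP (2MA), activates purinergic receptors, and its dose was 500 uM in the channel labels and 500 nM in 1 description. The 16 groups were LPS+IFNG and LPS+2MA at 1, 2 and 4 h, LPS alone at 30 min and at 1, 2 and 4 h, and IFNG alone and 2MA alone at 1, 2 and 4 h. Each group had 3 sets, and each set was hybridised on 2 arrays with the dyes exchanged, against untreated RAW 264.7 RNA of the same set and time. A set value is the mean of both arrays, and every value below is the log2 ratio of treated to untreated cells unless a fold is named. Unless another fit is named, each p-value uses 1 spread per probe, pooled over the sets of all 16 groups and moderated as described below. The SD beside a mean comes from that group's own sets, so a small SD need not go with a small p-value. The labels do not state if each set came from its own culture, so this pooled spread may be technical. Whether treatments of 1 set shared their untreated RNA is not stated either. The values are of bulk RNA, in which more cells with a transcript and more transcript per cell cannot be told apart, and a ratio carries no level.

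The 96 arrays held values for 13508 to 15004 probes each (median 14749.5), and 13698 probes were tested. Before signs were turned, the Cy5 over Cy3 ratios of both arrays of 1 set, which hold opposite orientations, correlated between -0.784 and 0.396 over probes. In 10 of 48 sets this correlation was above 0, where opposite orientations of 1 response give a negative one. Some descriptions call the treated RNA the control, so direction rests on the dye labels. In the 10 groups with LPS, all 161 values of Tnf and all 178 values of Il1b were above 0, and in the 6 groups with IFNG, all 36 values of Irf1 and all 72 values of Socs1 were above 0. Ratios cannot check the cell type: 6 of 7 macrophage markers have a probe, on 3 to 96 arrays, but probes of T cell, B cell and fibroblast markers have values on 93 to 96 arrays too.

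Bcl2a1a has closely related copies on mouse chromosome 9. Bcl2a1d, at 88723288 to 88731850, and Bcl2a1b, at 89199273 to 89207838, lie near it, and Bcl2a1c, at 114330135 to 114330578, lies far from these 3. The 250 bases before the start of 3 of these genes are shown from RefSeq (GRCm38.p6), 5′ to 3′ in the direction of each gene, because they show how alike the copies are upstream of the start. By the annotation they lie outside the transcribed part of their own gene, so they say nothing of which RNA a probe binds. They are chr9:88956670-88956919 (plus strand) for Bcl2a1a, chr9:88731851-88732100 (minus strand) for Bcl2a1d and chr9:89199023-89199272 (plus strand) for Bcl2a1b. Capitals mark a match to the AP-1 motif written as TGANTCA, where N allows any base. Each match shown reads TGAATCA, with A at N.
Bcl2a1a: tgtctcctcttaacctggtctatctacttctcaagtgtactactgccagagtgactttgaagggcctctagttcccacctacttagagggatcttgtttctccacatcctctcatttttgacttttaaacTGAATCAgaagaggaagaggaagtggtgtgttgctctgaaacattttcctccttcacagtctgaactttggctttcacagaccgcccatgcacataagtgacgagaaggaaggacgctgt
Bcl2a1d: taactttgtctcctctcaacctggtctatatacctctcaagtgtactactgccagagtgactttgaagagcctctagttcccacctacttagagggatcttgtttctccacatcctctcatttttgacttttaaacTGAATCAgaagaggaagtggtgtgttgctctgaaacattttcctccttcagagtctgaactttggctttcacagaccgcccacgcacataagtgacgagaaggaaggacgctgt
Bcl2a1b: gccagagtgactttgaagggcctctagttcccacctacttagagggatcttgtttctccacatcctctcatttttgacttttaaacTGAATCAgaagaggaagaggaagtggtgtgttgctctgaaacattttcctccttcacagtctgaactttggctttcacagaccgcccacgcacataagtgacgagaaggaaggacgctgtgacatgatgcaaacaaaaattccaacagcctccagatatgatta
In an alignment with free ends, the Bcl2a1a and Bcl2a1d stretches shared 238 of 250 columns (95.2%), the Bcl2a1a and Bcl2a1b stretches 205 of 206 (99.5%), and the Bcl2a1a and Bcl2a1c stretches 132 of 140 (94.3%). The AP-1 match starts 120 bases before the Bcl2a1a start, 114 before the Bcl2a1d start and 164 before the Bcl2a1b start. It is the same aligned site in all 3 stretches. The Bcl2a1b stretch runs on past the bases that end the Bcl2a1a stretch, so their annotated starts differ. The Bcl2a1a and Bcl2a1d alignment holds 6 gap columns. An AP-1 match is absent from the 250 bases before Bcl2a1c and Cflar. Matches to the NF-kB consensus and to the interferon element GAS (TTCNNNGAA) were searched on both strands as well, and none lay in these windows of the 4 Bcl2a1 genes or of Cflar. Over 32851 RefSeq promoter stretches searched on both strands, 6.75% held the AP-1 motif, 7.25% the NF-kB consensus and 7.02% GAS.

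Bcl2a1a rose in every LPS-containing group from 1 h on and kept rising to 4 h. In LPS+IFNG its set values were 0.91, 0.99 and 0.71 at 1 h, 2.70, 2.12 and 2.15 at 2 h, and 3.23, 3.09 and 3.58 at 4 h. In LPS+2MA they were 1.24, 0.77 and 0.76 at 1 h, 2.86, 2.42 and 1.62 at 2 h, and 3.42, 3.05 and 3.30 at 4 h. In LPS alone they were 0.30, 0.13 and 0.61 at 30 min, 0.90, 0.74 and 0.82 at 1 h, 1.98, 2.18 and 1.67 at 2 h, and 3.26, 2.77 and 2.82 at 4 h. The sets of the 3 treatments overlapped at each of 1, 2 and 4 h, and within each treatment the ranges at 1, 2 and 4 h did not overlap. At 4 h the mean ratio was 9.85-fold in LPS+IFNG (3.30 ± 0.25, SD, n = 3), 9.54-fold in LPS+2MA (3.25 ± 0.19) and 7.74-fold in LPS (2.95 ± 0.27). All 6 arrays were above 0 in each of these 3 groups. The adjusted p of limma was 1.18e-21, 1.87e-21 and 6.26e-20 in that order of treatments. With quantile normalisation, which gives all arrays 1 common distribution, these means were 2.11, 2.09 and 2.11 and still passed. At 30 min of LPS the mean of 0.35 ± 0.24 did not pass the test (adjusted p = 0.772), but with quantile normalisation it was 0.61 and passed (adjusted p = 0.00531).

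The single ligands other than LPS moved Bcl2a1a late and little. In IFNG the set values were -0.24, -0.25 and -0.02 at 1 h, 0.07, 0.09 and 0.08 at 2 h, and 0.70, 0.84 and 0.66 at 4 h. In 2MA they were 0.14, -0.17 and 0.03 at 1 h, 0.43, 0.38 and 0.02 at 2 h, and 0.57, 0.48 and 0.69 at 4 h. Only the 4 h groups passed the test, with a rise of 1.66-fold in IFNG (0.73 ± 0.09, adjusted p = 0.000153) and 1.50-fold in 2MA (0.58 ± 0.11, adjusted p = 0.0168), each in 6 of 6 arrays. The 2MA call was lost when any 1 of the 3 sets was left out (adjusted p 0.0741 to 0.255), and in a fit to the compared group alone (0.0813).

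Bcl2a1a thus passed the test in 11 of 16 groups. The share of all tested probes that passed in either direction was 7.26%, 20.1% and 33% at 1, 2 and 4 h of LPS+IFNG, and 5.27%, 17.2% and 32.4% at the same times of LPS+2MA. It was 1.09%, 5.49%, 15.4% and 28% at 30 min, 1, 2 and 4 h of LPS. It was 1.07%, 3.45% and 12.1% at 1, 2 and 4 h of IFNG, and 1.69%, 1.4% and 1.96% at those times of 2MA. Ordered by mean log2 ratio among the 13698 tested probes, Bcl2a1a held place 74 at 4 h of LPS+IFNG, 78 in LPS+2MA and 68 in LPS, counted from the highest.

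**Figure D1:**
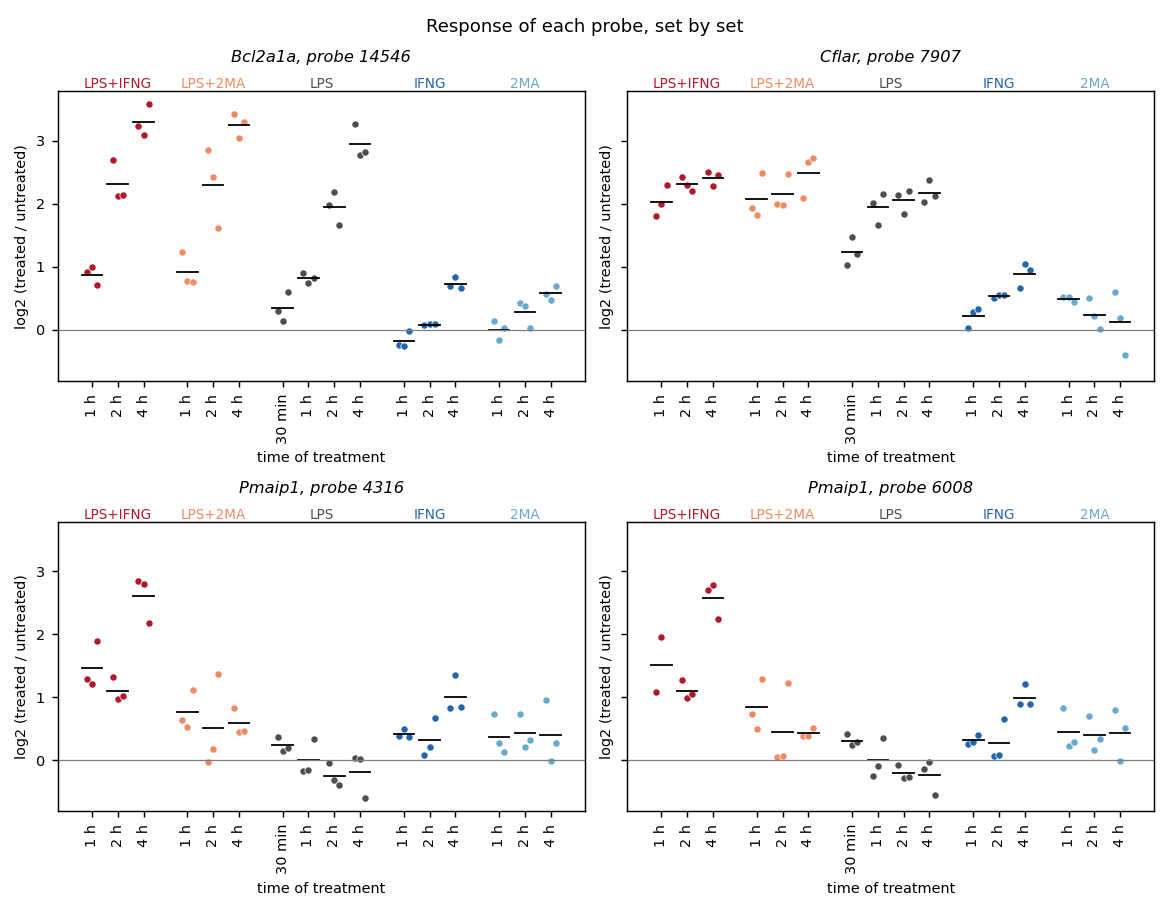
Set values of the 4 probes of Bcl2a1a, Cflar and Pmaip1 in the 16 groups of treatment and time, as log2 of treated over untreated RNA. Points are sets and lines are group means. Bcl2a1a climbs with time in all LPS-containing treatments, Cflar is near 2 from 1 h on in them, and both Pmaip1 probes stand highest in LPS+IFNG at 4 h (2.60 and 2.57).

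The other Bcl2a1 probes bear on how specific that measurement is. Probe 2127 of Bcl2a1d followed probe 14546 of Bcl2a1a closely, with r = 0.993 over 47 sets and a median absolute difference of 0.0824 between their log2 ratios. Probe 17666 of Bcl2a1c did so with r = 0.991 over 48 sets and a median absolute difference of 0.106. These correlations are over sets that share arrays. Probes 14546, 2127 and 17666 also had like values at 4 h. Probe 17666 of Bcl2a1c had 3.55 ± 0.15 in LPS+IFNG, 3.41 ± 0.31 in LPS+2MA and 2.98 ± 0.06 in LPS. Bcl2a1d had 3.23 ± 0.22 in LPS+IFNG, 3.13 ± 0.08 in LPS+2MA (n = 2) and 2.93 ± 0.19 in LPS.

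Probe 12787 of Bcl2a1b ran lower. At 4 h its mean was 1.46 ± 0.29 in LPS+IFNG (n = 2), 1.61 ± 0.66 in LPS+2MA and 1.14 ± 0.42 in LPS, with r = 0.891 to Bcl2a1a over 47 sets and a median absolute difference of 0.626. A second Bcl2a1c probe, 5978, had a value on 35 arrays, gave 9 set values and was not tested. Over those sets its r to Bcl2a1a was 0.471. Its values at 4 h were 0.61 in LPS+IFNG and 0.17 in LPS, from 1 set each, far below those of the other Bcl2a1c probe. Whether the probes bind the RNA of more than 1 copy was not tested, because probe sequences were not used here, so Bcl2a1a cannot be told apart from its copies by probe 14546.

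**Figure D2:**
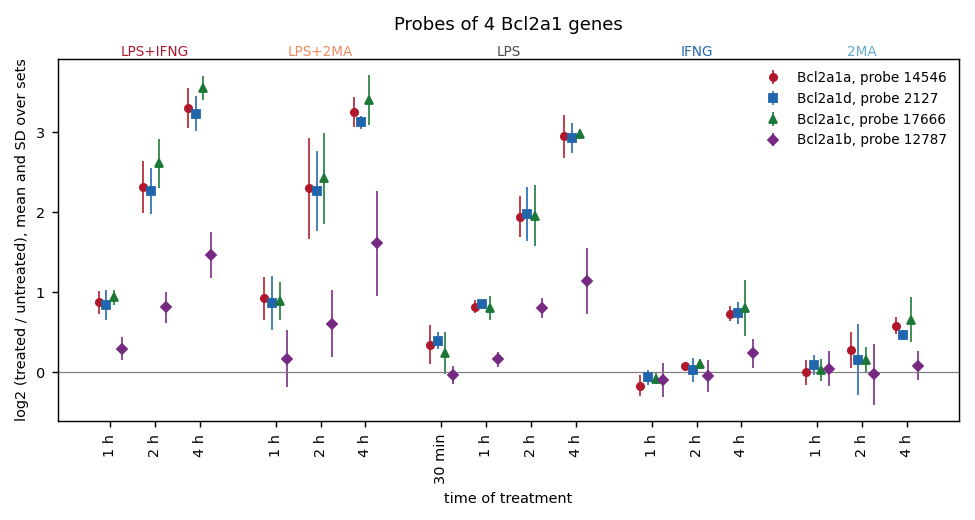
Mean log2 ratio of treated to untreated RNA of the 4 tested Bcl2a1 probes in 16 groups, with bars of 1 SD over sets. The probes of Bcl2a1a, Bcl2a1d and Bcl2a1c lie nearly on each other, up to 3.30, 3.23 and 3.55 in LPS+IFNG at 4 h, and the Bcl2a1b probe lies below them at 1.46.

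Cflar rose early, and with the ratios as deposited its means from 1 to 4 h lay close together in each LPS-containing treatment. With quantile normalisation its LPS means were 2.08, 2.27, 1.86 and 1.51 at 30 min, 1, 2 and 4 h, so on that scale the order over time turned after 1 h. This scaling gives the arrays of all times the same spread, though 1.09% of probes passed at 30 min of LPS and 28% at 4 h. A turn made by the scaling itself therefore cannot be told apart here. On the deposited ratios Cflar had passed the test after 30 min of LPS, with set values of 1.03, 1.48 and 1.20 and a mean ratio of 2.36-fold (1.24 ± 0.22, n = 3, 6 of 6 arrays above 0, adjusted p = 3.3e-08). This was place 46 from the highest of 13698 probes. In LPS+IFNG its set values were 1.80, 2.00 and 2.30 at 1 h, 2.43, 2.29 and 2.21 at 2 h, and 2.51, 2.29 and 2.45 at 4 h. In LPS+2MA they were 1.94, 1.82 and 2.49 at 1 h, 1.99, 1.99 and 2.47 at 2 h, and 2.09, 2.66 and 2.73 at 4 h. Over the 3 times the sets ran from 1.80 to 2.51 in LPS+IFNG and from 1.82 to 2.73 in LPS+2MA. In LPS alone they were 2.02, 1.66 and 2.16 at 1 h, 2.15, 1.84 and 2.21 at 2 h, and 2.02, 2.37 and 2.12 at 4 h. They overlapped the LPS+2MA sets at each time and the LPS+IFNG sets at 1 and 4 h, and at 2 h the highest LPS set and the lowest LPS+IFNG set were both 2.21. Cflar was above 0 on every array of the 10 LPS-containing groups. At 4 h the mean ratio was 5.33-fold in LPS+IFNG (2.42 ± 0.11), 5.62-fold in LPS+2MA (2.49 ± 0.35) and 4.51-fold in LPS (2.17 ± 0.18), with an adjusted p of 4.18e-16 or smaller. With quantile normalisation these means were 1.51, 1.55 and 1.51 and passed too.

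IFNG alone raised Cflar at 2 and 4 h. The set values were 0.02, 0.29 and 0.34 at 1 h, 0.51, 0.55 and 0.55 at 2 h, and 0.66, 1.05 and 0.95 at 4 h. The mean ratio was 1.45-fold at 2 h (0.54 ± 0.02, adjusted p = 0.0152) and 1.85-fold at 4 h (0.89 ± 0.20, adjusted p = 6.06e-06), with 6 of 6 arrays above 0 at both times. The 2 h call was lost when any 1 set was left out (adjusted p 0.0547 to 0.230). In 2MA alone no time passed the test: the set values were 0.52, 0.52 and 0.43 at 1 h (0.49 ± 0.05, adjusted p = 0.0574), 0.50, 0.21 and 0.01 at 2 h, and 0.60, 0.18 and -0.40 at 4 h. With the set number as a block, the 1 h value passed (adjusted p = 0.0378). In all, Cflar passed in 12 of 16 groups.

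Pmaip1, the pro-death gene, rose at every time of LPS+IFNG and did not pass the test at any time of LPS alone. On probe 4316 the LPS+IFNG set values were 1.29, 1.21 and 1.89 at 1 h, 1.32, 0.96 and 1.01 at 2 h, and 2.84, 2.80 and 2.17 at 4 h. In LPS alone they were 0.37, 0.14 and 0.19 at 30 min, -0.17, -0.17 and 0.33 at 1 h, -0.04, -0.31 and -0.39 at 2 h, and 0.03, 0.02 and -0.60 at 4 h. The ranges of LPS+IFNG and LPS did not overlap at 1, 2 or 4 h. The mean ratio in LPS+IFNG was 2.76-fold at 1 h (1.47 ± 0.37, adjusted p = 1.22e-07), 2.14-fold at 2 h (1.10 ± 0.19, adjusted p = 1.36e-05) and 6.07-fold at 4 h (2.60 ± 0.38, adjusted p = 8.65e-15), with all 6 arrays above 0 at each time. With quantile normalisation the 4 h mean was 1.68. In LPS alone the means were 0.24 ± 0.12, -0.00 ± 0.29, -0.25 ± 0.18 and -0.18 ± 0.36 at 30 min, 1, 2 and 4 h, and the 4 h value had an adjusted p of 0.566.

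The second Pmaip1 probe gave the same picture. On probe 6008 the LPS+IFNG set values were 1.08 and 1.95 at 1 h, where set 2 had a value in 1 dye only, 1.27, 0.99 and 1.05 at 2 h, and 2.70, 2.78 and 2.24 at 4 h. In LPS alone they were 0.41, 0.23 and 0.29 at 30 min, -0.25, -0.10 and 0.35 at 1 h, -0.07, -0.28 and -0.26 at 2 h, and -0.14, -0.04 and -0.55 at 4 h. The groups again did not overlap at 1, 2 or 4 h. At 4 h the LPS+IFNG mean was 5.96-fold (2.57 ± 0.29, adjusted p = 2.95e-15) and the LPS mean was -0.24 ± 0.27 (adjusted p = 0.375). Both probes correlated at r = 0.987 over 47 sets, with a median absolute difference of 0.0644 and a largest of 0.436.

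In IFNG alone Pmaip1 rose at 4 h and did not pass at 1 or 2 h. On probe 4316 its set values were 0.38, 0.49 and 0.36 at 1 h, 0.07, 0.20 and 0.68 at 2 h, and 0.83, 1.35 and 0.84 at 4 h. On probe 6008 they were 0.26, 0.29 and 0.40 at 1 h, 0.06, 0.09 and 0.65 at 2 h, and 0.90, 1.20 and 0.88 at 4 h. The 4 h ratios were 2.01-fold (1.00 ± 0.30, adjusted p = 0.000106) and 1.99-fold (0.99 ± 0.18, adjusted p = 5.16e-05) on these probes, in 6 of 6 arrays each. The 1 h mean on probe 4316, 0.41 ± 0.07, was above 0 on 6 of 6 arrays but did not pass the test (adjusted p = 0.847).

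Under the purinergic agonist the Pmaip1 values were small and uneven. In LPS+2MA probe 4316 had 0.64, 0.53 and 1.12 at 1 h, -0.03, 0.18 and 1.37 at 2 h, and 0.83, 0.45 and 0.47 at 4 h. Probe 6008 had 0.73, 0.50 and 1.28 at 1 h, 0.05, 0.06 and 1.22 at 2 h, and 0.39, 0.39 and 0.51 at 4 h. At 2 h set 3 stood far above the other sets on both probes. The rise at 1 h passed on both, at 1.69-fold on probe 4316 (0.76 ± 0.31, adjusted p = 0.00641) and 1.78-fold on probe 6008 (0.84 ± 0.40, adjusted p = 0.00108), each in 6 of 6 arrays. At 2 h neither probe passed (adjusted p = 0.0581 and 0.0794), though probe 4316 did without set 1 (0.77, adjusted p = 0.0291) and with the set number as a block (0.0453).

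At 4 h of LPS+2MA probe 4316 passed with 1.50-fold (0.58 ± 0.21, adjusted p = 0.0134) and probe 6008 did not (0.43 ± 0.07, adjusted p = 0.0582), though it did with the set number as a block (0.0432). On probe 4316 the 1 h call was lost without set 2 (adjusted p = 0.0527) or set 3 (0.0563), and the 4 h call without set 1 (0.173) or set 2 (0.0576) and with quantile normalisation (0.117). In 2MA alone, probe 4316 had 0.73, 0.27 and 0.12 at 1 h, 0.73, 0.21 and 0.33 at 2 h, and 0.95, -0.02 and 0.28 at 4 h. Probe 6008 had 0.82, 0.22 and 0.29 at 1 h, 0.70, 0.16 and 0.33 at 2 h, and 0.80, -0.02 and 0.51 at 4 h. Set 1 was the highest at each time on both probes, and neither probe passed. In all, probe 4316 passed in 6 of 16 groups and probe 6008 in 5.

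The design pairs LPS with a second ligand, so the dual groups were set against LPS at the same time. These comparisons share the LPS arrays, and 1.04%, 2.64% and 4.18% of all tested probes passed at 1, 2 and 4 h for LPS+IFNG minus LPS. Pmaip1 passed at all 3 times on both probes. The log2 difference on probe 4316 was 1.47 at 1 h (95% interval 0.93 to 2.00, adjusted p = 0.000429), 1.35 at 2 h (0.81 to 1.88, adjusted p = 0.000982) and 2.78 at 4 h (2.25 to 3.32, adjusted p = 4.92e-10). On probe 6008 it was 1.52 at 1 h (0.95 to 2.08, adjusted p = 0.000582), 1.31 at 2 h (0.80 to 1.81, adjusted p = 0.000629) and 2.82 at 4 h (2.31 to 3.32, adjusted p = 1.06e-10). With quantile normalisation the 2 h call of probe 6008 was lost (1.03, adjusted p = 0.0619). The 4 h differences are 6.89-fold and 7.05-fold, which put the Pmaip1 probes at places 8 and 7 from the highest of 13698. Intervals here are not adjusted for the number of probes and do not pair the sets by their number.

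Neither survival gene passed in this comparison. The LPS+IFNG minus LPS difference of Bcl2a1a was 0.05 at 1 h (-0.35 to 0.45), 0.38 at 2 h (-0.02 to 0.78) and 0.35 at 4 h (-0.05 to 0.75). That of Cflar was 0.09 at 1 h (-0.31 to 0.49), 0.25 at 2 h (-0.15 to 0.64) and 0.24 at 4 h (-0.16 to 0.64). The intervals leave room for a rise of up to 0.78 in Bcl2a1a and 0.64 in Cflar, all below the lower bound of Pmaip1 at every time.

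For LPS+2MA minus LPS, 0.117%, 0.0511% and 0.314% of tested probes passed at 1, 2 and 4 h, and no probe of the 3 genes was among them. Pmaip1 nevertheless had positive values throughout: 0.76 (0.23 to 1.30), 0.75 (0.22 to 1.29) and 0.76 (0.23 to 1.30) on probe 4316, and 0.84 (0.33 to 1.34), 0.65 (0.15 to 1.15) and 0.67 (0.17 to 1.17) on probe 6008, at 1, 2 and 4 h. Their adjusted p lay between 0.389 and 1. In a fit to all single arrays with a dye term and a block for the set, 3 of these passed: probe 6008 at 1 h (adjusted p = 0.00614) and 4 h (0.0420) and probe 4316 at 4 h (0.0348). That fit counts the 2 dye-exchanged arrays of a set as separate values, tied by 1 correlation of 0.245, so it holds no further sets. At 1, 2 and 4 h the LPS+2MA sets all lay above the LPS sets on both probes, by a narrow margin at 2 h on probe 4316 (-0.03 against -0.04 for the nearest sets). How many of all tested probes separate in this way was not counted. Both probes read the same gene on the same arrays, so they are not separate evidence. Bcl2a1a differed by 0.10, 0.35 and 0.30 and Cflar by 0.13, 0.09 and 0.32 at these times, with upper bounds of at most 0.75.

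**Figure D3:**
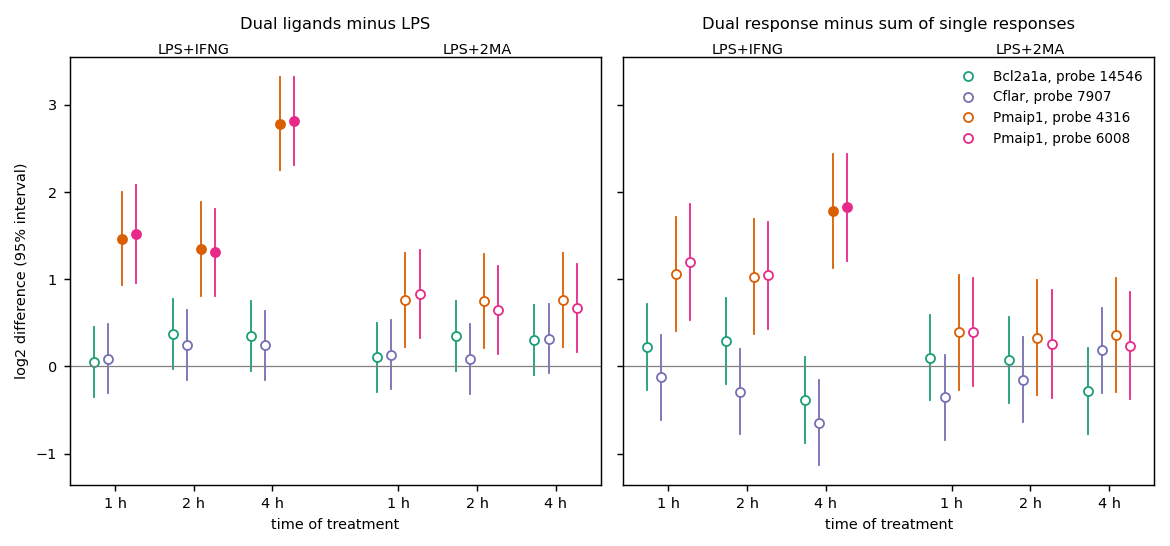
Log2 differences of the 4 probes at 1, 2 and 4 h with 95% intervals. The left panel shows LPS+IFNG and LPS+2MA minus LPS, and the right panel the dual response minus the sum of the single responses. Filled points passed the test (adjusted p below 0.05) and open points did not. Pmaip1 is filled at all times in LPS+IFNG minus LPS and at 4 h against the sum, where it stood at 1.78 and 1.82.

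The dual responses were also set against the sum of the log2 responses to each ligand alone. For LPS with IFNG, 0.102%, 0.343% and 2.66% of tested probes deviated from the sum at 1, 2 and 4 h. Pmaip1 stood above the sum at 4 h, by 1.78 on probe 4316 (1.12 to 2.44, 3.43-fold, adjusted p = 0.000337) and by 1.82 on probe 6008 (1.21 to 2.44, 3.54-fold, adjusted p = 9.93e-05). At 4 h, 102 probes passed above the sum and 263 below it over the whole array. At 1 and 2 h the Pmaip1 deviations were 1.06 and 1.03 on probe 4316 and 1.20 and 1.04 on probe 6008, and none passed (adjusted p 0.204 to 0.897). In the fit to all single arrays, which counts both dye-exchanged arrays of a set, all 4 passed (adjusted p 0.00254 to 0.0235).

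Bcl2a1a deviated by 0.22, 0.29 and -0.38 at 1, 2 and 4 h of LPS with IFNG, and none passed. Cflar deviated by -0.13, -0.29 and -0.64, and the 4 h value (-1.13 to -0.16) had an adjusted p of 0.215. It passed in a fit to all single arrays with a dye term, where both arrays of a set are counted (adjusted p = 0.0247). For LPS with 2MA, 0.0219%, 0.0292% and 0.0949% of tested probes deviated at 1, 2 and 4 h, with none of the 3 genes among them. Deviations there ran from -0.36 for Cflar at 1 h to 0.39 for Pmaip1 at 1 h. The 4 h deviation of Pmaip1 depends on the scaling of the arrays: with quantile normalisation it was 0.88 on probe 4316 (adjusted p = 0.296) and 0.87 on probe 6008 (adjusted p = 0.323), while LPS+IFNG minus LPS at 4 h was 1.84 and 1.86 and still passed.

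The course over time was compared within each gene, by an F test over the times of 1 treatment. The test passed in 16.2% of probes for LPS+IFNG, 15.9% for LPS+2MA, 16.2% for LPS, 3.66% for IFNG and 0.285% for 2MA. Bcl2a1a passed in LPS+IFNG, LPS+2MA, LPS and IFNG, where its highest and lowest time means lay 2.43, 2.33, 2.61 and 0.90 apart (adjusted p = 2.01e-11, 2.27e-11, 3.35e-13 and 0.00726). The IFNG call was lost without set 1 (adjusted p = 0.135) or set 2 (0.299) and with Cy5 arrays alone (0.0717). Cflar passed in LPS alone, where its times lay 0.93 apart (adjusted p = 0.0013), and that test includes the 30 min time that the dual groups lack. Without set 1 the Cflar call was lost (adjusted p = 0.0620). Its 1, 2 and 4 h means lay 0.38 apart in LPS+IFNG and 0.41 apart in LPS+2MA, which did not pass. Pmaip1 passed in LPS+IFNG, where the 2 h mean was the lowest and the 4 h mean 1.50 above it on probe 4316 (adjusted p = 8.15e-05) and 1.47 above it on probe 6008 (adjusted p = 0.000286). With quantile normalisation neither probe passed (adjusted p = 0.120 and 0.278).

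Ranked by mean ratio, the 16 groups formed gradual orders with few gaps. The pairs below were set by that same ranking, and such gaps were not counted over all tested probes. They describe these probes and cannot show that the gaps are particular to them. For Bcl2a1a, 2 of 15 neighbouring pairs of groups did not overlap in their set values: LPS at 4 h over LPS+IFNG at 2 h (means 0.63 apart), and LPS at 2 h over LPS+2MA at 1 h (1.02 apart). For Cflar these were LPS at 1 h over LPS at 30 min (0.71 apart) and IFNG at 4 h over IFNG at 2 h (0.35 apart). For Pmaip1 the gap lay at the top, LPS+IFNG at 4 h over LPS+IFNG at 1 h, by 1.14 on probe 4316 and 1.06 on probe 6008. The lowest group was IFNG at 1 h for Bcl2a1a and 2MA at 4 h for Cflar. For Pmaip1 it was LPS at 2 h on probe 4316 and LPS at 4 h on probe 6008.

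Likeness of pattern was measured as Pearson's r over the 16 group means, followed by r over 48 set values; groups share treatments and arrays, so these are descriptions. After the probes of Bcl2a1d and Bcl2a1c (0.998 both), Bcl2a1a was most like Ikbke (0.982 and 0.969), a kinase related to the IkB kinases, then Clic4 (0.978 and 0.932) and the chemokine receptor gene Cxcr2 (0.978 and 0.948). Cflar was most like Marcksl1 (0.958 and 0.907), Lynx1 (0.957 and 0.936), Tnfaip3, which encodes the NF-kB inhibitor A20 (0.945 and 0.918), Traf1, a TNF receptor adapter (0.942 and 0.918), and Rel, an NF-kB subunit (0.941 and 0.860). Pmaip1 had no such close neighbour apart from its own second probe (0.996 and 0.987). Next to probe 4316 stood the receptor kinase gene Tyro3 (0.892 and 0.613), the activin-binding follistatin gene Fst (0.860 and 0.766), Clec4n (0.811 and 0.614) and Snap23 (0.810 and 0.633). For probe 6008, Gpr33 (0.805 and 0.736) took a place beside Tyro3, Fst and Clec4n.

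The dye left a small mark on each probe that the exchange balances within a set. The ratio read with treated RNA in Cy5 minus that with treated RNA in Cy3 averaged 0.154 for Bcl2a1a, -0.240 for Cflar, -0.217 for Pmaip1 probe 4316 and 0.106 for probe 6008. Cy3 gave the higher value in 44 of 48 sets for Cflar and in 44 of 48 for probe 4316. For Bcl2a1a it did so in 12 of 48 and for probe 6008 in 10 of 47. With Cy5 arrays alone 3 calls were lost: the IFNG time course of Bcl2a1a given above, the IFNG 2 h response of Cflar (adjusted p = 0.116) and the LPS+2MA 4 h response of probe 4316 (adjusted p = 0.195).

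The 3 genes act within larger families, whose other members were counted at 4 h beside all 13698 tested probes. The lists were chosen with earlier results of these data known and are given as counts, with the median response of their probes. Over all probes, 2086 rose and 2440 fell in LPS+IFNG (15.2% and 17.8%), 2032 and 2407 in LPS+2MA, 1722 and 2107 in LPS, 874 and 781 in IFNG, and 196 and 72 in 2MA. The median over all probes was -0.01 in LPS+IFNG.

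Among the other anti-apoptotic Bcl-2 family genes, 12 probes of 8 genes were tested. In LPS+IFNG 5 probes rose and none fell (median 0.22), in LPS+2MA 7 rose and 1 fell, in LPS 6 rose and 2 fell, in IFNG 3 rose, and in 2MA 2 rose. The leading genes of LPS+IFNG were the Bcl2a1 copies Bcl2a1c, Bcl2a1d and Bcl2a1b given above. Their probes are among the 5 that rose. Because Bcl2a1a cannot be told apart from its copies here, these rises may repeat its own. Of the pro-apoptotic Bcl-2 family, 14 probes of 9 genes were tested, and Bax, Bmf and Bik were not analysed here. In LPS+IFNG 3 rose and 2 fell (median -0.06), in LPS+2MA 2 rose and 6 fell, in LPS 3 rose and 4 fell, in IFNG none passed, and in 2MA 1 fell. In LPS+IFNG, Bcl2l11, which encodes the BH3-only protein Bim, rose by 1.84 and 1.34 on its 2 probes. Bid, which links death receptors to the mitochondrion, rose by 0.52 (adjusted p = 0.00207). Bbc3, which encodes Puma, fell by 0.43 (adjusted p = 1.69e-05).

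Of caspases and apoptosome genes, 17 probes of 12 genes were tested. In LPS+IFNG 5 rose and 3 fell, in LPS+2MA 6 rose and 3 fell, in LPS 5 rose and 2 fell, in IFNG 4 rose, and in 2MA none passed. The 2 genes that led in LPS+IFNG were caspases of inflammation rather than of apoptosis: Casp1 rose by 2.14 and Casp4 by 2.23 and 1.94. Casp9, the caspase of the apoptosome, fell by 0.72 (adjusted p = 0.00737). Of inhibitor of apoptosis genes, 7 probes of 4 genes were tested, with 4 up and 2 down in LPS+IFNG, 4 up and 1 down in LPS+2MA, 2 up and 2 down in LPS, 2 up in IFNG and 1 up in 2MA. In LPS+IFNG Birc3 rose by 1.69 and Birc2 by 0.57, 0.66 and 0.43 on 3 probes. Birc5, whose product survivin serves cell division, fell by 0.82 and 0.28.

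In the 3 LPS-containing treatments, death receptor genes had the highest median of the 6 lists. Of their 16 probes (10 genes), 10 rose and 1 fell in LPS+IFNG (median 1.04), 10 rose and 2 fell in LPS+2MA (median 0.93), 9 rose and 1 fell in LPS (median 0.72), 7 rose and 1 fell in IFNG (median 0.24), and 4 rose in 2MA (median 0.09). Fas, the death receptor itself, led in LPS+IFNG with 4.06 and 3.86, before Tnfrsf1b (2.88) and Traf1 (2.43 and 1.67). Of the p53 pathway, to which Pmaip1 also belongs, 19 probes of 13 genes were tested, with 6 up and 4 down in LPS+IFNG (median -0.05), 11 up and 5 down in LPS+2MA (median 0.52), 6 up and 5 down in LPS (median 0.20), 4 up in IFNG and none in 2MA. Gadd45b (2.54 and 2.52), the kinase gene Plk2 (1.37 and 1.56) and Mdm2 (1.17), whose product degrades p53, led in LPS+IFNG.

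**Figure D4:**
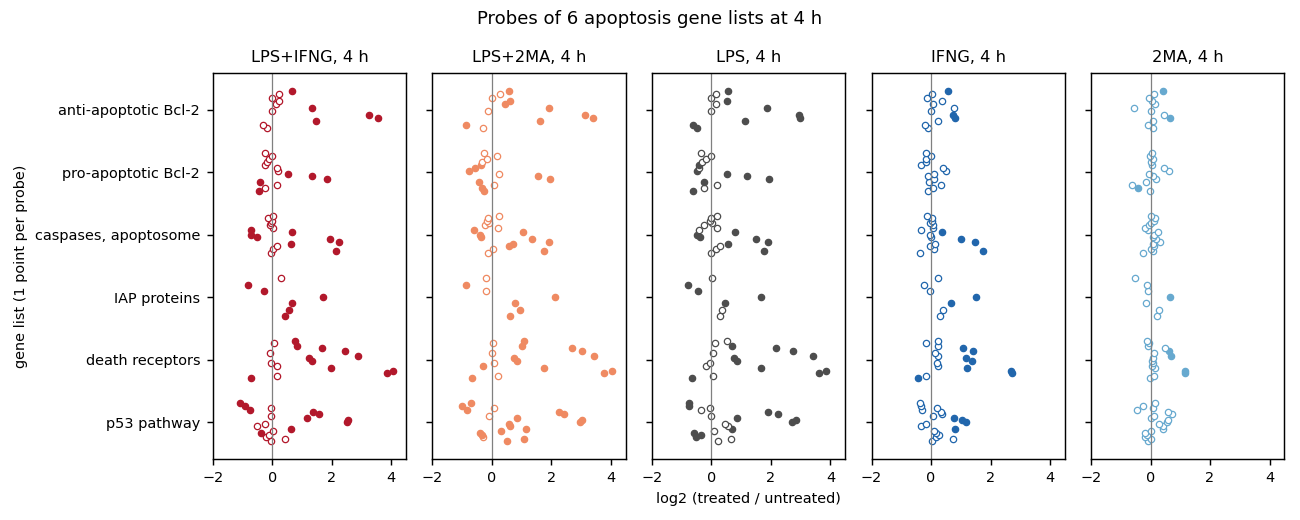
Log2 ratio of treated to untreated RNA at 4 h, 1 panel for each treatment and 1 point for each tested probe of 6 lists of apoptosis genes, Bcl2a1a, Cflar and Pmaip1 excluded. Filled points passed the test. In LPS+IFNG the death receptor list reaches 4.06 (Fas) and has a median of 1.04.

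The list genes were also compared between the dual groups and LPS. Over all tested probes 1.04%, 2.64% and 4.18% passed at 1, 2 and 4 h of LPS+IFNG minus LPS. The list sizes are those given above. In LPS+IFNG minus LPS, no probe of either Bcl-2 family list passed at 1, 2 or 4 h. Tnfrsf1a, the gene of TNF receptor 1, was higher at 1 h (1.54 and 1.67) and 2 h (1.77 and 1.86), and Mlkl, the effector of necroptosis, at 2 h (0.90, adjusted p = 0.00168). Of 2 Casp4 probes, 1 was higher at 1 h (0.60, adjusted p = 0.0228) and 2 h (0.82, adjusted p = 0.000259), Casp1 at 2 h (0.80, adjusted p = 0.00774) and Birc3 at 1 h (0.97, adjusted p = 0.0161). In the p53 pathway list the only calls were of Gadd45a. It was lower at 2 h on both probes (-1.08 and -1.19) and at 4 h on 1 (-1.06, adjusted p = 0.0309). With quantile normalisation the calls of Casp4 at 1 h (0.54) and 2 h (0.50), Casp1 at 2 h (0.53), Birc3 at 1 h (0.54) and Gadd45a at 4 h (-0.75) were lost, and those of Tnfrsf1a, Mlkl and Gadd45a at 2 h were kept. In LPS+2MA minus LPS, no list probe passed at any time. Over all tested probes 0.117%, 0.0511% and 0.314% passed there at 1, 2 and 4 h.

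At 4 h of LPS with IFNG, 11 list probes deviated from the sum of the single responses, all below it: 6 of death receptor genes, 2 of caspases, 2 of the p53 pathway and 1 of inhibitor of apoptosis genes. The list sizes are those given above. Over all tested probes 2.66% deviated in this comparison, and most of these lay below the sum too. The list probes include Fas (-2.49 and -2.48), Traf1 (-1.74 and -1.59), Mlkl (-0.93), Birc3 (-1.50), Casp1 (-1.38), Casp4 (-1.16) and Gadd45b (-1.35 and -1.36). The calls of both Gadd45b probes, the only ones of the p53 pathway list here, were lost with quantile normalisation, at -1.36 and -1.46. Both Pmaip1 probes lay on the other side, at 1.78 and 1.82 above the sum. Their calls were lost with quantile normalisation too, at 0.88 and 0.87. No probe of the Bcl-2 family lists deviated. With the arrays centred or quantile normalised, all 412 list values that passed, over responses, differences and deviations, kept their direction, and 410 and 372 of them passed again.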

How the data were processed

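The authors deposited 1 log2 ratio of Cy5 to Cy3 per probe and array. For image analysis, background correction, normalisation and centring before deposit, the sources used here state no method. The scale, log2, was read from the values, whose largest, 6.64, stands in 14 places. The medians of nonzero values lay, before signs were turned, between -0.0183 and 0.0442. Per the labels, the channels gave each array's direction, and signs were turned where Cy3 carried the treated RNA. Exact 0 was read as no measurement. A set value needed both dye orientations, and a probe with fewer than 2 of 3 sets in any group was not tested, which left out 2583 probes. By the platform annotation, 13738 probes had 1 gene symbol, 52 several and 2491 none.

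In limma 3.58.1 (R 4.3.3, data.table, version 1.17.8), 1 mean per group was fitted to 48 set values of 13698 probes with empirical Bayes moderation (32 residual and 6.29 prior degrees of freedom). Responses were tested against 0, dual ligands against LPS and against the sum of single responses, and times by an F test. Tests were two-sided, with Benjamini-Hochberg adjustment over all probes within each comparison and a threshold of 0.05. The median standard error was 0.119 for a response, 0.168 for a difference and 0.206 for a deviation. Plots used matplotlib 3.10.9 in Python 3.11.15.

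The genes, lists and tests were chosen with earlier results of these data known. Named are every probe of Bcl2a1a, Cflar and Pmaip1, the 5 probes most like each, list genes that passed and are among the 3 largest of their list, all Bcl2a1 genes, and Tnf, Il1b, Irf1 and Socs1. Set numbers come from the titles. For each dual-minus-LPS comparison, all same-numbered sets correlated above 0.1 (lowest 0.122) in their deviations from group means, so the numbers pair those sets, as they do for the deviations of LPS+IFNG at 4 h (from 0.260) and LPS+2MA at 2 h (0.131) and 4 h (0.236). The other deviations (lowest -0.0586) and the time courses (lowest -0.512) did not meet this rule for all their pairs of sets. For the deviation of LPS+IFNG at 1 h the lowest was 0.0950 and the highest 0.705, so failing the rule does not show that sets are unpaired. Alternatives were other treatments of zeros, filters, array scalings, single dyes, all arrays with a dye term, the compared groups alone, a set block, gene means and leaving out each set.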

Additional observations from a re-analysis of the deposited data

Results flagged for a closer look

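Among 64 groups of arrays (4 probes in 16 groups), 3 had 1 array apart from the others by Dixon's test. Each had 6 values, except probe 6008 at 1 h of LPS+IFNG, which had 5. Chance alone flags about 1 in 20 where values are independent, which the 2 arrays of a set need not be. For Cflar at 30 min of LPS, the array of set 2 with treated RNA in Cy3 read 1.76, against 1.22 for the next. For Cflar at 1 h of LPS, the array of set 2 with treated RNA in Cy5 read 1.41, below the next at 1.90. For probe 4316 of Pmaip1 at 4 h of LPS+2MA, the array of set 1 with treated RNA in Cy3 read 1.33, against 0.588 for the next.

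Responses of 1 treatment also differed between times by the F test. The highest and lowest time means lay 1.50 apart on probe 4316 and 1.47 apart on probe 6008 for Pmaip1 in LPS+IFNG. For Bcl2a1a they lay 2.43 apart in LPS+IFNG, 2.33 in LPS+2MA, 2.61 in LPS and 0.903 in IFNG. For Cflar they lay 0.935 apart in LPS.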

How the results depend on the processing

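Of 1995 comparisons of a probe under an alternative, 1936 kept their side of the threshold, 23 lost the call and 36 gained one. None that passed in either fit reversed its direction, which was not counted for the F tests. Values that passed in neither fit could change sign, as the LPS+IFNG minus LPS difference of Cflar at 1 h did (-0.43 to 0.14). Keeping zeros, asking for 1 set per group, centring the arrays, and keeping lone dye orientations (chosen after seeing the data) changed no call. Asking for all 3 sets dropped probe 6008. Fitting all arrays with a dye term and a random block for the set (correlation 0.245) gained 17 calls and lost none. This fit counts the 2 dye-exchanged arrays of a set as separate values, so its added calls rest on no further sets. Cflar then had 13 responses, 1 deviation and 2 time courses, and probe 4316 had 7 responses, 4 differences, 3 deviations and 2 time courses. Probe 6008 had 9 responses, 5 differences, 3 deviations and 2 time courses. With quantile normalisation, probes 4316 and 6008 had 0 deviations and 0 time courses each, the 2 h difference of probe 6008 was 1.03 (adjusted p = 0.0619), and probe 4316 lost its LPS+2MA 4 h call (0.43, adjusted p = 0.117), and the 4 h responses of LPS+IFNG were 2.11 for Bcl2a1a, 1.51 for Cflar and 1.68 and 1.65 for Pmaip1. The cause was not tested. With Cy5 arrays alone probe 4316 had 2 deviations, and with the compared groups alone Cflar and probe 6008 had 2 time courses each and Bcl2a1a lost its 2MA 4 h call (adjusted p = 0.0813).

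With the set number as a replicate block, calls were gained for Cflar at 1 h of 2MA (0.49, adjusted p = 0.0378), probe 4316 at 2 h of LPS+2MA (0.50, adjusted p = 0.0453) and probe 6008 at 4 h of LPS+2MA (0.43, adjusted p = 0.0432). The block changed no other call. Leaving out 1 set at a time gave 10 to 10 responses, 0 to 0 differences, 0 to 0 deviations and 3 to 4 time courses for Bcl2a1a. It gave 11 to 11, 0 to 0, 0 to 0 and 0 to 1 for Cflar, 4 to 6, 3 to 3, 1 to 1 and 1 to 1 for probe 4316, and 5 to 5, 3 to 3, 1 to 2 and 1 to 2 for probe 6008.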
